A study of Homo sapiens with 12 samples.

Results

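The aminoacyl-tRNA synthetase genes examined here comprise the cytosolic and mitochondrial enzymes, the scaffold genes AIMP1, AIMP2 and EEF1E1, and the tRNA exporter gene XPOT. Members were chosen by gene symbol from a list of 38 and kept where the expression tables listed them. This gave 32 of the 38 members among 6777 genes: 19 cytosolic enzymes, 9 mitochondrial enzymes, the 3 scaffold genes and XPOT. The mitochondrial genes AARS2, EARS2, NARS2, SARS2, VARS2 and YARS2 were not listed and were not analysed here. Every listed gene had more than 1 FPKM (fragment counts scaled to gene length and library size) in every library, so all 32 members also passed the minimum mean of 1 FPKM set for the tests.

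The cells were MDA-MB-231, a long-established line from a human breast tumour of the triple-negative kind, and received 10 nM AZD0095 or its solvent DMSO for 4 h. AZD0095 inhibits the lactate exporter MCT4, encoded by SLC16A3, and the study asked what lactate retained in the cells does to transcription and translation. RNA-seq and ribosome profiling each had 3 libraries per treatment, 12 in all, and ribosome profiling reads the mRNA fragments (footprints) that ribosomes protect from RNase I. The footprint lysates came from cells given cycloheximide and had been cleared of nuclei and mitochondria. All libraries come from 1 cell line, and nothing in the labels ties a replicate to a culture of its own. The p-values thus measure only how far these libraries spread, which may be technical. Of the markers of this mesenchymal line, VIM, CD44, EGFR, AXL and CAV1 were listed at 57.8 to 2799 FPKM, ERBB2 and EPCAM at 9.33 to 21.4 FPKM, and ESR1, PGR and CDH1 were not listed.

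An aminoacyl-tRNA synthetase joins an amino acid to its matching tRNA and so sets which amino acid a codon gives. Cytosolic and mitochondrial enzymes mostly come from separate nuclear genes, whereas GARS1 and KARS1 each serve both compartments. In human cells some cytosolic enzymes are held together with AIMP1, AIMP2 and EEF1E1 in the multi-synthetase complex, and the others act outside it. When uncharged tRNA builds up, the kinase GCN2 slows general initiation and raises translation of the transcription factor ATF4. Other stresses reach ATF4 through other kinases. ATF4 binds C/EBP-ATF response elements and induces genes for amino acid supply, and several cytosolic synthetase genes are among its known targets.

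The promoters of 7 members held the core of this element, and their sequences are shown because the RNA changes below are read against them. RefSeq windows of 300 bases, from 250 before to 50 after each gene's start on GRCh38.p14, were found for 29 of the 32 members, and LARS1, VARS1 and YARS1 had none. The core TGATGNAA was searched on both strands of every window. Some members have several windows, and a member was scored once if any of them held the core. Each line gives 30 bases, 5′ to 3′, on the strand where the core reads in this form, with the core in capitals.
AARS1: tctaacttggcTGATGCAActgcgagaaaa
CARS1: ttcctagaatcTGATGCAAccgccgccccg
GARS1: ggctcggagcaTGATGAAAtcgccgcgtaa
IARS1: gcgcacggaggTGATGCAAcgcgctgaaaa
MARS1: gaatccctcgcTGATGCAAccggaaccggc
NARS1: tctacgctctcTGATGCAAcgccggaatcg
TARS1: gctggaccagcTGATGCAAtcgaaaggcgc
These stretches lie at AARS1 chr16:70289675-70289704 (plus), CARS1 chr11:3057407-3057436 (plus), GARS1 chr7:30594834-30594863 (minus), IARS1 chr9:92293692-92293721 (plus), MARS1 chr12:57488053-57488082 (minus), NARS1 chr18:57621804-57621833 (minus), TARS1 chr5:33440956-33440985 (minus), with the printed strand in brackets. Counted from the annotated start as position 1, with no position 0 and negative numbers before it, the core spans -187 to -180 in AARS1, -33 to -26 in GARS1 and -13 to -6 in IARS1. It lies across the start in CARS1 (-2 to 6) and MARS1 (-4 to 4), and just after it in TARS1 (3 to 10) and NARS1 (15 to 22). The start is that of the RefSeq promoter table, which for GARS1 and TARS1 lies within the span of the annotated gene rather than at its first base. Of the 7 cores, 6 carry C in the open place and that of GARS1 carries A. In NARS1 the core reads on the strand of the gene and in the other 6 on the opposite strand.

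All 7 belong to cytosolic enzymes: the core was present in 7 of 16 cytosolic genes with a window (43.8%) and in 0 of 9 mitochondrial ones. Counted per gene in the same way, the share was 2.55% over the 5656 listed genes with a window. Counted per window, it was 3.62% over all 35116 RefSeq windows of this length. The form with C was in 20.7% of the 29 members with a window, counted per gene, and in 0.866% of all windows, counted per window. Shares per gene and per window differ in unit. Among all listed genes with a window, the share was 3.30% of the 273 genes whose RNA rose, 1.83% of the 164 whose RNA fell and 2.53% of the 5219 others. A match describes letters in this window and does not show binding, and a window without a match says only that the core is not among its bases.

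The core of AARS1 lies farthest from its start, so the 250 bases before that start are shown whole (chr16:70289507-70289756, minus strand, the gene's direction), with the core, here in reverse complement, in capitals.
AARS1 upstream: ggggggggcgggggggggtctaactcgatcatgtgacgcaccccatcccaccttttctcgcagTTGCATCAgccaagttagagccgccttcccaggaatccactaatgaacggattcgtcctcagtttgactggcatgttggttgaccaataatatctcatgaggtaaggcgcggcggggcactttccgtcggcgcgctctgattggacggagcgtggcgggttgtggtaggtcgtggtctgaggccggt
HARS1 and HARS2, the cytosolic and mitochondrial histidine enzymes, run in opposite directions with 84 bases between their starts. That stretch, chr5:140691371-140691454 on the plus strand (the direction of HARS2), has 9 CG dinucleotides and no match to the core.
HARS1-HARS2: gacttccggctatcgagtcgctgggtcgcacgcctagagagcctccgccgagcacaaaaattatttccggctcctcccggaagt

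Replicates were closer in RNA than in footprints: the median SD of a member within a group was 0.11 (DMSO) and 0.12 (AZD0095) on the log2 scale for RNA, and 0.34 and 0.40 for footprints. In the RNA, replicate 1 stood apart from replicates 2 and 3 for some members. It was the highest library of both treatments for 15 of 32 members. For 9 of these it was above the mean of the other two libraries by more than 0.2 on the log2 scale in both treatments (0.24 to 0.63): EPRS1, FARSB, LARS1, NARS1, RARS1, TARS1, WARS2, AIMP1 and XPOT. This choice fixes the direction in which leaving out a replicate 1 library moves the change, so only the sizes are results. Without AZD0095 replicate 1 it went down, from -0.07 to -0.28 for EPRS1, from -0.16 to -0.25 for FARSB and from -0.10 to -0.23 for LARS1. It went from 0.12 to -0.03 for NARS1, from -0.23 to -0.32 for WARS2 and from -0.12 to -0.23 for XPOT. AIMP1, RARS1 and TARS1 are given below. Without DMSO replicate 1 the change went up, to 0.03 for EPRS1, -0.07 for FARSB and -0.01 for LARS1. It went up to 0.20 for NARS1, -0.13 for WARS2 and -0.04 for XPOT. RNA depth is unknown. Relative depth of the footprint libraries, recovered from the steps between their values, was 1.00, 0.865 and 1.55 with DMSO and 1.14, 1.75 and 4.05 with AZD0095.

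With AZD0095 the RNA of 6 cytosolic synthetase genes rose by 1.20 to 1.37-fold, and that of 1 mitochondrial gene, MARS2, fell to 0.732 of its DMSO level. The risen genes were AARS1, GARS1, SARS1, CARS1, YARS1 and WARS1. Each change is given on the log2(FPKM + 1) scale, which understates changes of low genes, with its standard error (SE). A gene was called at a Benjamini-Hochberg adjusted p under 0.05 in a two-sided limma test over all 6777 genes. Over all genes 5.03% were called higher and 3.01% lower, against 6 and 1 of the 32 members. The other 25 members were not called, and the median change was -0.01 over the members and 0.01 over all genes.

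**Figure D1:**
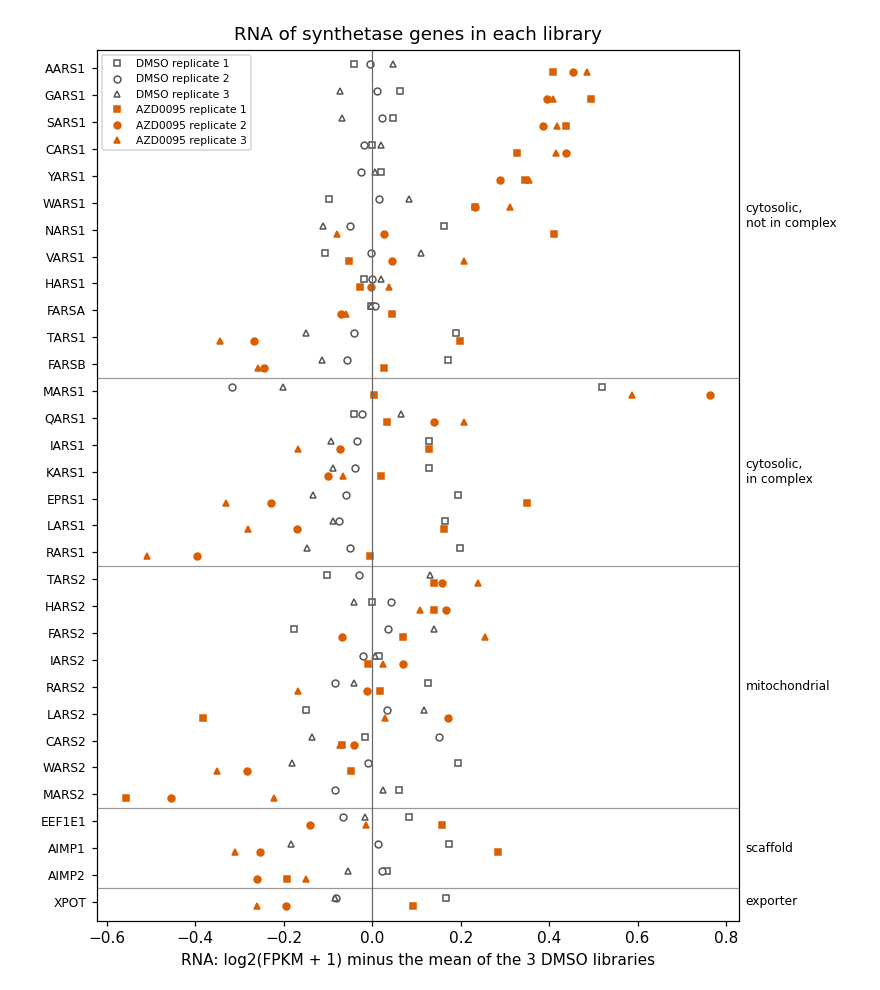
RNA of the 32 members in each library, as log2(FPKM + 1) minus the mean of the 3 DMSO libraries (open grey, DMSO; filled orange, AZD0095; the shape marks the replicate), grouped by class. The AZD0095 libraries lie to the right of every DMSO library for AARS1, GARS1, SARS1, CARS1, YARS1 and WARS1, and to the left for MARS2, while replicate 1 (squares) lies to the right of replicates 2 and 3 in both treatments for 15 of the 32 members, EPRS1 and TARS1 among them.

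AARS1, the alanine enzyme, measured 43.9, 45.0 and 46.7 FPKM in the DMSO libraries and 60.3, 62.2 and 63.7 FPKM in the AZD0095 libraries. All AZD0095 values lay above all DMSO values, 1.37-fold on the means, and the change was 0.45 (SE 0.05, limma adjusted p = 0.00369). GARS1, the glycine enzyme of cytosol and mitochondria, measured 133, 129 and 121 FPKM with DMSO and 180.1, 168 and 169.8 FPKM with AZD0095. Its groups did not overlap either, and the change was 0.43 (SE 0.05, limma adjusted p = 0.00418). SARS1, the serine enzyme, measured 107, 105 and 98.7 FPKM with DMSO and 141, 136 and 139 FPKM with AZD0095. It rose by 0.41 (SE 0.05, limma adjusted p = 0.00377), with every AZD0095 library above every DMSO library. These 3 genes stayed called under all 14 other settings tried, with adjusted p of at most 0.0388.

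CARS1, the cysteine enzyme, measured 37.5, 37.0 and 38.0 FPKM with DMSO and 47.3, 51.2 and 50.4 FPKM with AZD0095. The DMSO libraries were close together and all lay below the AZD0095 libraries, a rise of 0.39 (SE 0.06, limma adjusted p = 0.00719). YARS1, the tyrosine enzyme, measured 101, 97.6 and 99.7 FPKM with DMSO and 126, 122 and 127 FPKM with AZD0095. It rose by 0.33 (SE 0.05, limma adjusted p = 0.00674) without overlap of the groups. WARS1, the tryptophan enzyme, which interferon also induces, measured 76.4, 82.7 and 86.7 FPKM with DMSO and 96.2, 96.3 and 102 FPKM with AZD0095. Its rise of 0.26 (SE 0.06, limma adjusted p = 0.0376) was the smallest of the 6. Leaving out DMSO replicate 2 ended the calls of CARS1, YARS1 and WARS1 (limma adjusted p 0.0544, 0.0544 and 0.133), with changes of 0.38, 0.32 and 0.27. Leaving out AZD0095 replicate 2 ended those of CARS1 and WARS1 (0.0512 and 0.118), with changes of 0.37 and 0.27. The calls over all genes also fell in these fits, from 545 to 100 and 116. The call of WARS1 was also lost without DMSO replicate 1 (0.0914), DMSO replicate 3 (0.0525) or AZD0095 replicate 3 (0.128), and under quantile normalization (0.0544).

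In RefSeq YARS1 (chr1:32775239-32817358) shares 797 bases with S100PBP, a gene not listed in the tables. The strand setting of the counting is not given in the sources used here, and reads of the shared stretch cannot be assigned. AARS1 (chr16:70252298-70289506), GARS1 (chr7:30594735-30634033), SARS1 (chr1:109213893-109238182), CARS1 (chr11:3000929-3057423) and WARS1 (chr14:100333790-100376327) overlap no other protein-coding gene.

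All 6 risen genes encode enzymes that act outside the multi-synthetase complex, where 6 of 12 were called and the median change was 0.19. Within the complex 0 of 7 cytosolic enzymes were called, with a median of -0.05. Over all genes 5.03% were called higher, so 0 of 7 is near that share. SEs of the complex enzymes ran from 0.06 (QARS1) to 0.25 (MARS1), and those of the 6 risen genes from 0.05 to 0.06. The difference between these groups was not tested. By the fold of the catalytic domain, 3 of 10 class I enzymes (CARS1, WARS1 and YARS1) and 3 of 9 class II enzymes (AARS1, GARS1 and SARS1) rose. EPRS1, which joins an enzyme of each class in 1 protein, was counted in class I. Summed over the 19 cytosolic enzymes, RNA came to 1646.6, 1502 and 1483 FPKM with DMSO and to 1773, 1662 and 1649.6 FPKM with AZD0095. The lowest AZD0095 sum was thus just above the highest DMSO sum.

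Outside the complex, the 6 enzymes not called were NARS1, VARS1, HARS1, FARSA, TARS1 and FARSB, with changes of 0.12 to -0.16. HARS1, the histidine enzyme, measured 69.8, 70.6 and 71.7 FPKM with DMSO and 69.4, 70.6 and 72.6 FPKM with AZD0095. Its groups overlapped and its change was 0.00 (SE 0.05, limma adjusted p = 0.976). FARSA and FARSB encode the subunits of the phenylalanine enzyme, and their changes were -0.03 (SE 0.05) and -0.16 (SE 0.11).

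Among the 7 complex enzymes, EPRS1, which charges glutamate and proline tRNAs, measured 54.9, 45.8 and 43.5 FPKM with DMSO and 61.2, 40.6 and 37.8 FPKM with AZD0095. Replicate 1 was the highest library in both treatments, the groups overlapped, and the change was -0.07 (SE 0.17, limma adjusted p = 0.839). Single libraries turned its sign: it was -0.28 (adjusted p = 0.0713) without AZD0095 replicate 1 and 0.06 (adjusted p = 0.907) without AZD0095 replicate 3. IARS1, the isoleucine enzyme, measured 133, 119 and 114 FPKM with DMSO and 133, 115 and 108 FPKM with AZD0095, again highest in replicate 1 of both groups. Its change was -0.04 (SE 0.09, limma adjusted p = 0.829), and -0.12 to 0.03 under the other settings. KARS1, LARS1 and QARS1, the lysine, leucine and glutamine enzymes, had changes of -0.05, -0.10 and 0.13, with limma adjusted p of 0.707, 0.672 and 0.258.

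MARS1, the methionine enzyme of the complex, was looked at in each library because of the size of its change and its spread, a choice made after its values were seen. It measured 109.6, 60.9 and 66.1 FPKM with DMSO and 76.4, 130.0 and 115 FPKM with AZD0095. In replicate 1 the DMSO library was the higher one, and in replicates 2 and 3 the AZD0095 library was. The change was 0.45 (SE 0.25, limma adjusted p = 0.309), as large as that of AARS1 and not called. It was 0.68 (adjusted p = 0.0406) without AZD0095 replicate 1 and 0.94 (adjusted p = 4.87e-07) in replicates 2 and 3 alone, but 0.29 (adjusted p = 0.621) without DMSO replicate 2 and 0.30 (adjusted p = 0.631) without AZD0095 replicate 2. In RefSeq MARS1 (chr12:57488068-57516652) shares 65 bases with DDIT3 and 757 with ARHGAP9, and neither gene was listed in the tables.

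RARS1 and TARS1 were likewise chosen after their values were seen, because leaving out AZD0095 replicate 1 brought a call. RARS1, the arginine enzyme of the complex, measured 99.7, 83.7 and 78.1 FPKM with DMSO and 86.4, 65.6 and 60.6 FPKM with AZD0095. Each AZD0095 library was below the DMSO library of the same number, while the groups overlapped, and the change was -0.30 (SE 0.14, limma adjusted p = 0.219). With all libraries RARS1 was called lower with the replicate number as a block (limma adjusted p = 0.00276) and with replicate 1 as a batch (0.00216). In replicates 2 and 3 alone the change was -0.35 (adjusted p = 0.00148), and without AZD0095 replicate 1 it was -0.45 (adjusted p = 0.0116). Leaving out DMSO replicate 1 gave -0.20 (adjusted p = 0.469), and leaving out AZD0095 replicate 3 also gave -0.20 (adjusted p = 0.505). TARS1, the threonine enzyme, measured 163, 139 and 129 FPKM with DMSO and 164, 118 and 112 FPKM with AZD0095. Its change was -0.14 (SE 0.14, limma adjusted p = 0.608), in replicates 2 and 3 alone it was -0.21 (adjusted p = 0.0177), and without AZD0095 replicate 1 it was -0.31 (adjusted p = 0.0415). It was -0.04 without DMSO replicate 1 (adjusted p = 0.910) and -0.03 without AZD0095 replicate 3 (adjusted p = 0.944). With all libraries TARS1 was not called with the block or the batch (limma adjusted p = 0.0770 and 0.0839).

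Mitochondrial enzymes had a median RNA change of -0.05 over the 9 listed, with 1 called lower and 0 higher. The shares over all genes were 3.01% lower and 5.03% higher. MARS2, which charges the methionine tRNA of mitochondria, measured 11.4, 10.2 and 11.1 FPKM with DMSO and 7.06, 7.65 and 9.17 FPKM with AZD0095. It fell by 0.41 on the log2 scale (SE 0.10, limma adjusted p = 0.0479), with every AZD0095 library below every DMSO library. This adjusted p was close to the threshold, and the call was lost under 6 of 14 other settings: median centring (0.0539), quantile normalization (0.0504), and without AZD0095 replicate 2 (0.169) or DMSO replicate 1, 2 or 3 (0.132, 0.122 and 0.129). The gene lies at chr2:197705369-197708395 and overlaps no other protein-coding gene.

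TARS2, the mitochondrial threonine enzyme, measured 14.2, 15.0 and 16.9 FPKM with DMSO and 17.0, 17.3 and 18.3 FPKM with AZD0095. HARS2, the mitochondrial histidine enzyme, measured 14.3, 14.8 and 13.9 FPKM with DMSO and 15.9, 16.2 and 15.5 FPKM with AZD0095. In both genes the AZD0095 libraries lay above the DMSO libraries without being called, at 0.18 (SE 0.08, limma adjusted p = 0.232) and 0.14 (SE 0.07, limma adjusted p = 0.262). They and the 6 called genes make up the 8 of 32 members whose groups did not overlap with AZD0095 higher, against 17.7% of all genes. The other 6 mitochondrial enzymes changed by -0.23 (WARS2) to 0.09 (FARS2), none of them called.

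Of the scaffold genes, 0 of 3 were called. Over all genes 5.03% were called higher and 3.01% lower, and 3 genes can lack a call at those shares. AIMP2 measured 30.6, 30.4 and 28.8 FPKM with DMSO and 26.1, 24.8 and 26.9 FPKM with AZD0095. Every AZD0095 library was below every DMSO library, and the change of -0.20 (SE 0.06, limma adjusted p = 0.0990) was not called. It was called lower with the replicate number as a block (limma adjusted p = 0.0359) and with replicate 1 as a batch (0.0256). Under the 12 other settings it was not called. AIMP2 and MARS2 were the 2 members whose groups did not overlap with AZD0095 lower, against 11.5% of all genes. AIMP2 (chr7:6009272-6023834) shares 1588 bases with EIF2AK1, the gene of another eIF2 kinase, whose own change was 0.01 (limma adjusted p = 0.949).

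AIMP1 measured 39.7, 35.5 and 30.8 FPKM with DMSO and 43.0, 29.3 and 28.2 FPKM with AZD0095, and EEF1E1 84.6, 76.2 and 78.9 FPKM with DMSO and 89.1, 72.2 and 79.1 FPKM with AZD0095. In both genes replicate 1 was the highest library of each group, and the changes were -0.09 (SE 0.16) and 0.00 (SE 0.08). That of AIMP1 was -0.28 (adjusted p = 0.0774) without AZD0095 replicate 1, -0.01 without DMSO replicate 1 and 0.02 without AZD0095 replicate 3, and that of EEF1E1 ranged from -0.08 to 0.07 over the other settings. XPOT, which carries tRNA out of the nucleus, measured 49.1, 41.1 and 41.1 FPKM with DMSO and 46.5, 38.0 and 36.2 FPKM with AZD0095. Its groups overlapped, and the change was -0.12 (SE 0.11, limma adjusted p = 0.538).

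Read against the promoter cores shown above, 3 of the 7 cytosolic enzymes with a core rose (AARS1, CARS1 and GARS1), with a median RNA change of 0.39 over the 7. Of the 9 cytosolic enzymes whose window had no core, 2 rose (SARS1 and WARS1), and the median was -0.03. The share called higher over all genes was 5.03%. YARS1 rose and had no window. TARS1, whose core lies just after the start, had a change of -0.14, and IARS1, whose core lies just before it, one of -0.04. MARS1 and NARS1, also with a core and not called, had changes of 0.45 and 0.12. The core was thus present in members that rose and in members that did not, and the difference between the groups was not tested.

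**Figure D2:**
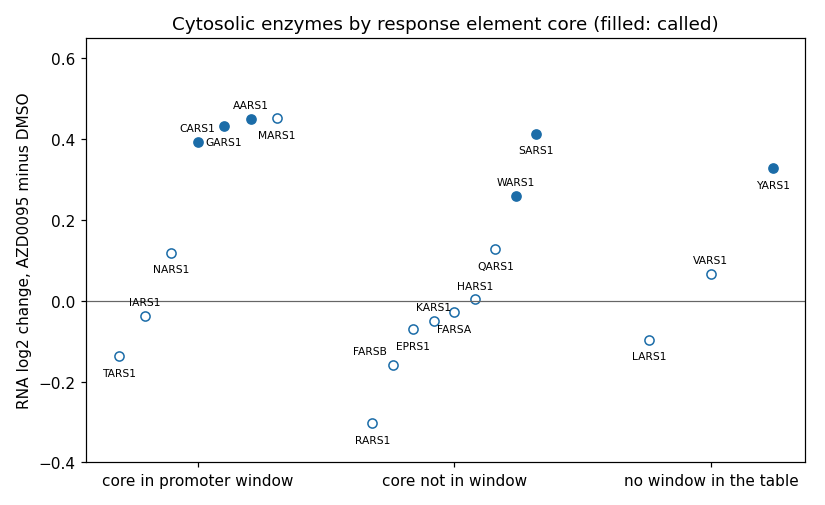
RNA change (log2, AZD0095 minus DMSO) of the 19 cytosolic enzymes, grouped by whether the RefSeq promoter window held the core TGATGNAA; filled points were called at a limma adjusted p under 0.05. Called genes appear in all 3 groups: 3 of 7 with the core, 2 of 9 without it and 1 of 3 with no window. The share called higher over all genes was 5.03%.

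No member was called in footprints, where 0% of all genes passed limma's adjusted threshold. The lowest adjusted p of a member was 0.631, and 3 of 32 members against 530 of 6777 genes had an unadjusted p under 0.05. The median footprint change was 0.45 over the members and 0.04 over all genes, with 22 members above 0 and 10 below. Footprint groups did not overlap for 8 members with AZD0095 higher and 2 with AZD0095 lower, against 7.19% and 5.77% of all genes. The AZD0095 footprint libraries together were 2.03 times as deep as the DMSO libraries, and the part of depth in these changes was not tested.

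AARS1 footprints measured 48.1, 62.8 and 61.1 FPKM with DMSO and 93.7, 82.3 and 100.0 FPKM with AZD0095. The groups did not overlap, and the change was 0.68 (SE 0.38, limma adjusted p = 0.702). WARS1 footprints measured 116, 107 and 82.5 FPKM with DMSO and 185, 169 and 156 FPKM with AZD0095. They too did not overlap, with a change of 0.75 (SE 0.32, limma adjusted p = 0.631). The footprint changes of GARS1, CARS1 and YARS1 were 0.59 (SE 0.33), 0.50 (SE 0.48) and 0.39 (SE 0.37), with overlapping groups. SARS1 differed from these in sign: its footprints measured 277, 273 and 277 FPKM with DMSO and 225, 254 and 269 FPKM with AZD0095. All its AZD0095 libraries were below the DMSO libraries, with a change of -0.15 (SE 0.25, limma adjusted p = 0.920).

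XPOT footprints measured 13.2, 3.20 and 29.4 FPKM with DMSO and 37.3, 47.7 and 41.7 FPKM with AZD0095. The groups did not overlap and the DMSO libraries differed widely, with a change of 1.82 (SE 0.70, limma adjusted p = 0.631). IARS2, the mitochondrial isoleucine enzyme, measured 5.26, 21.3 and 13.6 FPKM with DMSO and 34.6, 36.0 and 33.2 FPKM with AZD0095. Its AZD0095 libraries were close together and above all DMSO libraries, and the change was 1.49 (SE 0.60, limma adjusted p = 0.631). XPOT and IARS2 had the largest footprint changes among the members with all libraries, and both moved with single DMSO libraries. XPOT was 1.05 without DMSO replicate 2 and 2.48 without DMSO replicate 3, and IARS2 was 0.98 without DMSO replicate 1 and 1.90 without DMSO replicate 2.

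Read numbers behind these values could be recovered for 4 members, where all 6 footprint values were whole multiples of 1 read within 0.01 of a read. They are relative counts, since a factor common to all 6 libraries would go unseen. SARS1 had 54, 46 and 84 reads with DMSO and 50, 87 and 212 with AZD0095. IARS2 had 2, 7 and 8 reads with DMSO and 15, 24 and 51 with AZD0095, a ratio of 5.29 between the treatments where depth differed by 2.03. FARSB had 10, 8 and 19 reads with DMSO and 5, 22 and 54 with AZD0095. MARS2, whose RNA fell, had 2, 2 and 5 reads with DMSO and 1, 4 and 9 with AZD0095. At these numbers a footprint change of MARS2 as large as that of its RNA was not detectable: its footprint change was -0.51 with an SE of 0.57. Over the 1283 genes (18.9%) whose reads could be recovered the median was 6 to 12 reads per library with DMSO and 9 to 32 with AZD0095. The search tried at most 150 reads in the lowest library, so these medians do not stand for all genes.

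**Figure D3:**
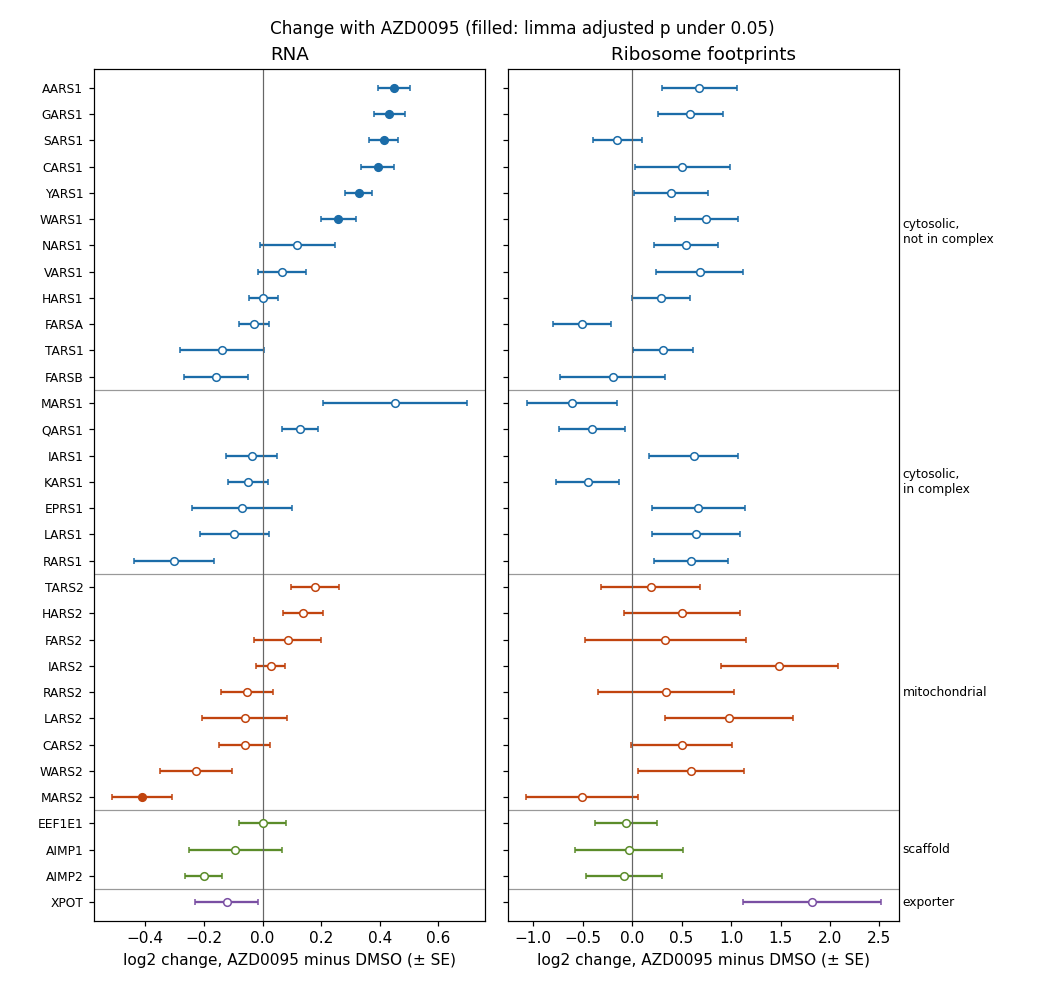
Change of the 32 members with AZD0095 in RNA (left) and in ribosome footprints (right), on the log2(FPKM + 1) scale with bars of 1 SE; filled points have a limma adjusted p under 0.05, and the panels have different axis ranges. The 7 filled points are all in the RNA panel, and the footprint bars are wider, up to 0.81 for FARS2.

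Translational efficiency is the ratio of footprints to RNA, and the interaction term of 1 limma model over the 12 libraries gave its change. No member was called, as 0% of all genes were, and the lowest adjusted p of a member was 0.468. Of the members 4 had an unadjusted p under 0.05, against 578 of all genes. SARS1 had a ratio change of -0.56 (SE 0.18, limma adjusted p = 0.468), with RNA at 0.41 and footprints at -0.15. RARS1 had one of 0.90 (SE 0.29, limma adjusted p = 0.468), with RNA at -0.30 and footprints at 0.59. RARS1 footprints measured 56.2, 60.3 and 69.8 FPKM with DMSO and 106, 77.7 and 100.1 FPKM with AZD0095, so the footprint groups did not overlap and the AZD0095 libraries were higher. IARS2 and XPOT had ratio changes of 1.46 (SE 0.51) and 1.94 (SE 0.73), both with a limma adjusted p of 0.472, and ranges of 0.93 to 1.87 and 1.17 to 2.60 over the other settings.

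Across the 32 members the RNA change and the footprint change were not related as a description: Pearson's r was -0.0039 and Spearman's rho 0.00623, and 18 of 32 pairs had the same sign. Over all genes r was 0.151 and rho 0.117. The genes share the same libraries and depths, so no p-value is given.

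In DMSO the cytosolic enzymes had a median RNA level of 78.9 FPKM, from 16.0 for FARSB to 143.5 for TARS1. Mitochondrial enzymes had a median of 14.03 FPKM, from 9.18 for WARS2 to 64.6 for IARS2. IARS2 was thus the 1 mitochondrial gene above the lowest cytosolic one. The scaffold genes AIMP2, AIMP1 and EEF1E1 stood at 29.9, 35.3 and 79.9 FPKM and XPOT at 43.8 FPKM. Median footprint levels were 124 FPKM for cytosolic and 19.2 FPKM for mitochondrial enzymes. QARS1, the glutamine enzyme, had the highest footprint level at 505 ± 187 FPKM (SD, n = 3) and EPRS1 the lowest of the cytosolic enzymes at 29.2 ± 2.48 FPKM (SD, n = 3).

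Ratios between genes that act together or do the same work in each compartment were compared by library. FARSA RNA was 7.21 ± 0.776 times FARSB RNA with DMSO (SD, n = 3) and 7.93 ± 0.585 times with AZD0095, although both subunits build 1 enzyme. In footprints the ratio was 6.96 ± 0.852 with DMSO and 6.04 ± 2.75 with AZD0095, so the unequal levels stood in both assays. HARS1 RNA was 4.78 to 5.16 times HARS2 RNA in the DMSO libraries and 4.36 to 4.68 times in the AZD0095 libraries. For IARS1 and IARS2 the RNA ratio was 1.65 to 2.07 over all 6 libraries, the closest of the 8 cytosolic and mitochondrial pairs. CARS1 stood to CARS2 at 2.32 to 2.95 with DMSO and at 3.49 to 3.73 with AZD0095. The MARS1 to MARS2 ratio was 5.98 to 9.64 with DMSO and 10.8 to 17.0 with AZD0095.

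Footprints per RNA ranged widely among the members. In DMSO the ratio of FPKM values was 0.178 for IARS2, a value among the lowest 0.177% of all genes, and 0.246 for XPOT, among the lowest 0.428%. The IARS2 value rests on 2, 7 and 8 relative footprint reads, and that of XPOT on footprints of 13.2, 3.20 and 29.4 FPKM. Mean footprints of IARS2 and XPOT were 13.4 and 15.3 FPKM with DMSO and 34.6 and 42.2 FPKM with AZD0095. Their mean RNA was 64.6 and 43.8 FPKM with DMSO and 65.9 and 40.2 FPKM with AZD0095. At the other end QARS1 had a ratio of 6.87, higher than 92.0% of genes. AARS1, GARS1, WARS1, YARS1 and CARS1 lay between 1.04 and 1.26, and SARS1 at 2.66. FPKM of the assays are scaled separately, so these ratios order genes and are not numbers of ribosomes.

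**Figure D4:**
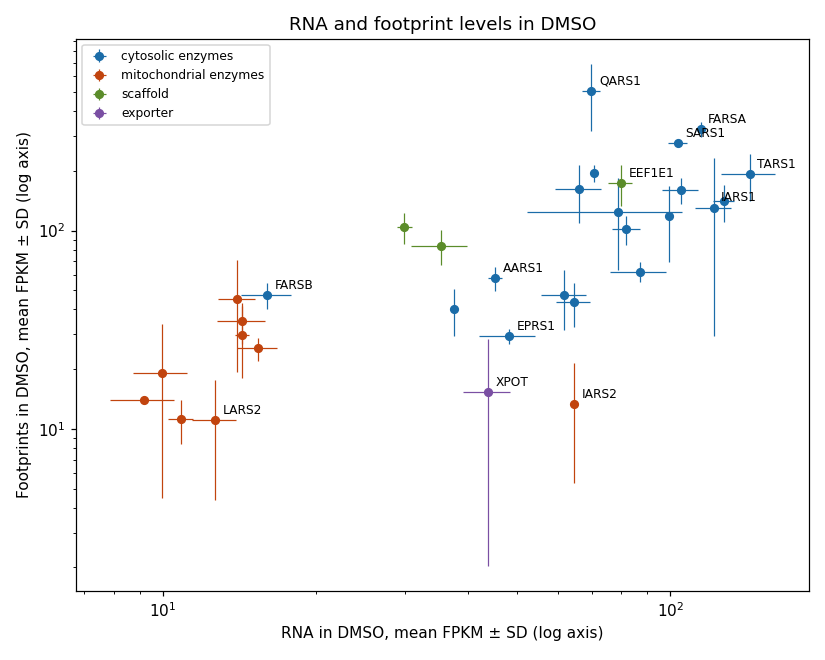
Mean footprint FPKM against mean RNA FPKM of the 32 members in DMSO (log axes; bars, SD of 3 libraries; colour, class). Mitochondrial enzymes sit at the low end of the RNA axis except IARS2, which has 64.6 FPKM in RNA and 13.4 FPKM in footprints. In footprints RARS2 (45.4 FPKM), CARS2 (35.0 FPKM) and HARS2 (29.8 FPKM) lie above EPRS1, the lowest cytosolic enzyme (29.2 FPKM). QARS1 has the highest footprint level at 505 FPKM.

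Other genes of the pathway were read from 7 lists, by the same RNA test. Over all 6777 genes it called 5.03% higher and 3.01% lower, and lists this short can lack a call at those shares. Among genes that act on tRNA or carry it, the test called 0 of 5 partners of charging, 0 of 12 carriers of charged tRNA and their exchange factors, and 0 of 22 tRNA processing and export genes. Their median changes were -0.07, 0.03 and -0.05. Of 37 tRNA modification genes 4 fell and 0 rose, with a median of -0.09. TRMT61A, a subunit of the methyltransferase of adenosine in the T loop, fell by 0.56 on the log2 scale (SE 0.08, limma adjusted p = 0.00669). TP53RK, the kinase subunit of the KEOPS complex, and DUS3L, a dihydrouridine synthase, changed by -0.34 and -0.36 (limma adjusted p = 0.0232 and 0.0464). TRMU, which thiolates mitochondrial tRNA, changed by -0.30 (limma adjusted p = 0.0395).

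Of the 20 genes in the list of GCN2 and ATF4 signalling 12 were in the expression tables. Among these 5 rose and 0 fell, against 5.03% and 3.01% of all genes, with a median change of 0.15. ATF4 itself went from 199 ± 8.39 to 256 ± 6.34 FPKM (SD, n = 3), a rise of 0.36 (SE 0.05, limma adjusted p = 0.00632). The ATF4 targets TRIB3, DDIT4 and VLDLR rose by 1.31, 2.23 and 1.25, and CEBPB, a partner of ATF4, by 0.89. The other 7 were not called, among them PPP1R15A at 0.10 and CEBPG at 0.19 (limma adjusted p = 0.499 and 0.359). EIF2AK4, which encodes GCN2, had a change of -0.01 (limma adjusted p = 0.932).

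Of 18 amino acid synthesis genes 8 rose and 0 fell, against 5.03% and 3.01% of all genes, with a median of 0.22. The 3 enzymes of the serine pathway, PHGDH, PSAT1 and PSPH, rose by 0.37, 0.46 and 0.78. CTH, which makes cysteine, rose by 1.33, GPT2, which makes alanine, by 0.86, GOT1 by 0.37, PYCR1, for proline, by 0.33 and MTHFD2, of mitochondrial folate metabolism, by 0.27 (limma adjusted p at most 0.0440 for all 8). Of 13 amino acid transport genes 4 rose and 1 fell, against the same shares of all genes, with a median of 0.03. SLC38A2, a transporter of small neutral amino acids, rose by 0.84, the glycine transporter gene SLC6A9 by 0.51, SLC1A4 by 0.49 and SLC7A11, the cystine importer, by 0.35. SLC7A6 changed by -0.39 (limma adjusted p = 0.0358). In the footprints 0 genes of the 7 lists were called. These lists were chosen with earlier results of these data known, so their counts are descriptions.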

How the data were processed

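RNA-seq and ribosome profiling libraries of 12 MDA-MB-231 samples were grouped by assay and treatment from the labels. The authors deposited FPKM values per gene. The tools named per the submitters' processing notes are STAR, Bowtie2 and fastp, with the build hg38; counter, annotation and strand setting were not given in the sources used here. Of 6785 entries, 8 repeats were removed, leaving 6777 genes (lowest value 1.002). All 32 members matched a gene name table by Ensembl ID and symbol. Values were fitted as log2(FPKM + 1) with limma 3.58.1 (R 4.3.3), with variances following a trend. Genes with a mean of at least 1 FPKM were kept, which removed 0, and p-values were adjusted by Benjamini-Hochberg over all genes and called under 0.05. Translational efficiency was the interaction term over 12 libraries. The scripts were tested on simulated data. Footprint depth was recovered from value steps; at most 6 genes shared a step ratio between RNA libraries, against 30 to 158 for footprint pairs, so RNA depth is unknown. Promoters and gene positions came from RefSeq tables (GRCh38.p14), matched by symbol. RNA libraries are titled total RNA but list polyadenylated RNA as molecule; this was not settled.

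Every member is accounted for. Values in each library are given for called members, for those with the 3 smallest p-values of each class, for the cytosolic enzymes with the 3 largest, and for the 4 with the smallest p-values in footprints and efficiency. Most other genes named are said to be chosen later or come from a list by its calls. EIF2AK4 and EIF2AK1 were named without a call, as the gene of GCN2 and as the gene that overlaps AIMP2. PPP1R15A and CEBPG were named as uncalled genes of the signalling list. Of the 8 pathway lists fixed, 1 is not reported here. The members and lists were chosen with earlier results of these data known. Alternatives were a pseudocount of 0.1, no filter or a minimum mean of 5 FPKM, median centring, quantile normalization, the replicate number as a block, replicate 1 as a batch, leaving out each library and, for efficiency, differences of same-numbered libraries; replicates 2 and 3 alone were added after seeing the data.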

Additional observations from a re-analysis of the deposited data

How the results depend on the processing

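With all libraries, 7 members were called in RNA, 6 higher and 1 lower. Leaving out 1 library gave 3 to 10 called, 3 to 7 higher and 0 to 3 lower. The total was 3 without DMSO replicate 2 (3 higher) and 4 without AZD0095 replicate 2. The calls over all genes also fell there, from 545 to 100 and 116. The lower count was 0 under median centring and quantile normalization, and 3 with a replicate block, with replicate 1 as a batch, without AZD0095 replicate 1 and in replicates 2 and 3 alone. The cause was not tested. The replicate block gave 9 calls, with RARS1 and AIMP2 added as lower, and replicates 2 and 3 alone gave 10. Over all genes the block raised the calls from 545 to 1622. They were 1112 without AZD0095 replicate 1 and 1395 in replicates 2 and 3 alone. Deviations of same-numbered RNA libraries correlated at 0.622, 0.0857 and 0.489, and those of footprint libraries at 0.00878, -0.0223 and 0.0913. RNA replicates 1 and 3 correlated best with their own number, against at most -0.314 and 0.303 with others. RNA replicate 2 correlated better with another number (0.234). The main RNA test had no replicate term, so it left out what same-numbered RNA libraries share. What ties them was not tested. The footprint values were small and give no pairing. No named RNA change turned its direction among the 7 called. Of the 25 uncalled members 12 changed sign under some setting, as did 8 of 32 in footprints and 13 of 32 in efficiency. Footprints and efficiency had 0 members called under every setting. Over all genes efficiency had 4 and 3 calls without footprint DMSO replicate 1 and 2. The part of footprint depth in these counts was not tested.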

Other observations

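Summed over the 9 mitochondrial enzymes, RNA came to 165, 165 and 166 FPKM with DMSO and 161, 168 and 166 FPKM with AZD0095. Their footprints summed to 159, 199.9 and 255 FPKM with DMSO and 335, 328 and 245 FPKM with AZD0095, and the groups overlapped. The 3 scaffold genes summed to 155, 142 and 138 FPKM in RNA with DMSO and 158, 126 and 134 FPKM with AZD0095. YARS2, the mitochondrial tyrosine enzyme, was not listed in the expression tables, and its RefSeq promoter window holds the core TGATGNAA at -197 to -190.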
